A study of Anser cygnoides with 18 samples.

Results

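High-intake feeding was compared with control feeding in the subcutaneous adipose tissue of geese. The comparison used 6 of the 18 RNA-seq libraries of the series, chosen by their tissue and feeding labels: C1-SF, C2-SF and C3-SF from 3 control geese and T1-SF, T2-SF and T3-SF from 3 high-intake geese. All were male Tianfu geese, a commercial hybrid of Anser anser and Anser cygnoides, 126 days old at the start of a 19-day trial and 145 days old when tissue was taken after a night without feed. The feed had the same composition in both groups. Control geese ate it freely, whereas high-intake geese were force-fed 2 to 4 times a day, with meals of 130 g on the first day and 5 g more on each later day. Expression was measured as FPKM (fragments per kilobase of transcript, scaled to the mapped fragments of the library), which relates the fragments of a gene to its length and to the size of the library. Of the 14628 mRNAs listed, 13264 had a mean above 0.1 FPKM over the 6 libraries and were tested, as were 1373 of 1701 long non-coding RNAs (lncRNAs). FPKM carries no fragment counts, so the sequencing depth of the libraries is unknown and no counting error is given. Each library is a piece of bulk tissue from 1 goose, and in such samples fewer cells of a type and less RNA per cell cannot be told apart.

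Birds make most of their new fatty acids in the liver, which sends them out as triacylglycerol in lipoproteins. In adipose tissue, lipoprotein lipase (LPL) on the capillary wall frees the fatty acids, the adipocyte takes them up, and enzymes that end with the diacylglycerol acyltransferases rebuild triacylglycerol, which is kept in a droplet coated by perilipin. A growing fat depot also has to remodel the collagens around each adipocyte and in the vessel walls, and it can gain cells by division of precursors. The genes of these steps were described through 29 lists of pathway members, together with 11 lists of cell type markers.

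The tissue label was checked first. Of 20 adipocyte markers 14 were in the table, and their summed level was 2418 to 8401 FPKM in the control libraries and 9636 to 11560 FPKM in the high-intake libraries, led by the retinol-binding protein RBP7. Perilipin 1 (PLIN1) reached 874, 270.3 and 756 FPKM in the control libraries, in the order C1-SF, C2-SF, C3-SF, and 1047, 995 and 1330.0 FPKM in T1-SF, T2-SF, T3-SF. The same order is used for all values below. Skeletal muscle markers summed to 3.29 to 4.62 FPKM in 5 libraries and to 26.8 FPKM in T3-SF. All 10 tested muscle markers were higher on average under high intake (69.0% of all mRNAs). Of these, 1 passed the test described below (1.18% of all mRNAs). The part of muscle RNA in the results was not tested. Summed keratinocyte markers were at 68.6 to 169.6 FPKM in control libraries and 175 to 249 FPKM in high-intake libraries.

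The control library C2-SF stood apart. Its FPKM summed to 107522 over the mRNAs, against 306428 to 394709 in the other 5 libraries, and its median log2(FPKM + 1) was 1.47 against 2.08 to 2.30. It was the lowest of the 6 libraries for 66.8% of the mRNAs tested and the highest for 14.8%. For the 353 mRNAs with a mean over 100 FPKM its median deviation from the 6-library median was -1.86 (log2), whereas for the 1893 mRNAs of 0.1 to 0.3 FPKM it was 0.37. For these rare mRNAs the deviation was 0.08 in C3-SF and -0.03 to -0.04 in the high-intake libraries. Results are therefore given with all 6 libraries, after centring each library on its median, and without C2-SF. A change is the difference of the mean log2(FPKM + 1), high-intake less control, given with its standard error (SE, n = 3 per group, or 2 control libraries without C2-SF). With all 6 libraries limma took the SE and p of each mRNA wholly from a variance trend fitted over abundance. The spread of the single mRNA between geese did not enter them. Without C2-SF, and after centring, that spread entered in part. An mRNA is said to have risen or fallen where it passed the test.

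**Figure D1:**
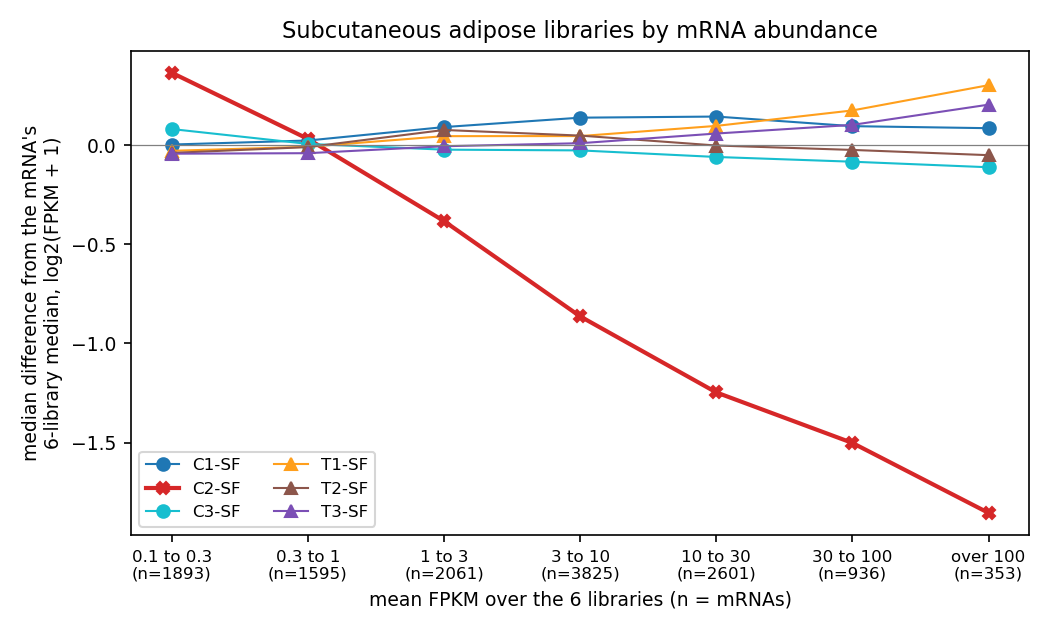
Median difference of each library from the 6-library median of an mRNA, on the log2(FPKM + 1) scale, for mRNAs grouped by their mean FPKM (n, number of mRNAs). Circles and the cross are control libraries and triangles are high-intake libraries; C2-SF falls steadily from 0.37 for the rarest mRNAs to -1.86 for the most abundant, while the other 5 libraries stay between -0.11 and 0.30.

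With all 6 libraries, 283 mRNAs, 2.13% of those tested, differed between the feeding groups at an adjusted p under 0.05 (limma's moderated test on log2(FPKM + 1), two-sided, Benjamini-Hochberg adjustment over all mRNAs tested). Of these, 157 were higher in high-intake geese (1.18% of the mRNAs tested) and 126 were lower (0.950%). The median change over all mRNAs was 0.21 (log2), or -0.09 after centring, and 69.0% of all mRNAs were higher on average. After centring, 38 mRNAs passed (0.286%), 30 higher and 8 lower, and 31 of the 38 were among the 283. Without C2-SF, 4 of 12429 passed (0.0322%), of which SUN1, GABRA4 and STBD1 were higher and SNAI2 was lower. At an unadjusted p under 0.05, 1703 mRNAs differed with all 6 libraries and 1500 without C2-SF.

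The higher and lower mRNAs were different in kind. The 157 higher mRNAs had a median over mRNAs of 3.49 FPKM, and 20 of them (12.7%) had a mean under 1 FPKM, compared with 26.3% of all mRNAs tested. The feeding groups did not overlap in 125 of the 157 higher and 76 of the 126 lower mRNAs (13.1% and 7.78% of all mRNAs), a count that the threshold itself largely sets. The median change of the higher mRNAs was 1.36 with all 6 libraries and 1.10 without C2-SF, where all 157 kept their sign and 117 had an unadjusted p under 0.05. C2-SF was the lowest library for 106 of them (67.5%), close to its 66.8% among all mRNAs. A share near that of all mRNAs does not show that these calls are free of C2-SF. Of the 157, 26 passed after centring and 3 without C2-SF. The 126 lower mRNAs had a median of 0.554 FPKM, 84 of them (66.7%) had a mean under 1 FPKM, and 81 (64.3%) carried a locus name in place of a gene symbol, against 12.5% of all mRNAs tested. C2-SF was the highest library for 92 of these (73.0%), and in 77 of them C3-SF came next. Their median change was -0.78, or -0.47 without C2-SF, where 117 of the 118 that could still be tested kept their sign and 78 had an unadjusted p under 0.05. Both the higher and the lower mRNAs were chosen by a fit that held all libraries kept when C2-SF was left out. The kept signs and low unadjusted p values are therefore partly built in. Of the 126 lower mRNAs, 5 passed after centring and 0 without C2-SF. The part of C2-SF in either set, and of its high level of rare mRNAs in the lower set, was not tested beyond these counts.

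**Figure D2:**
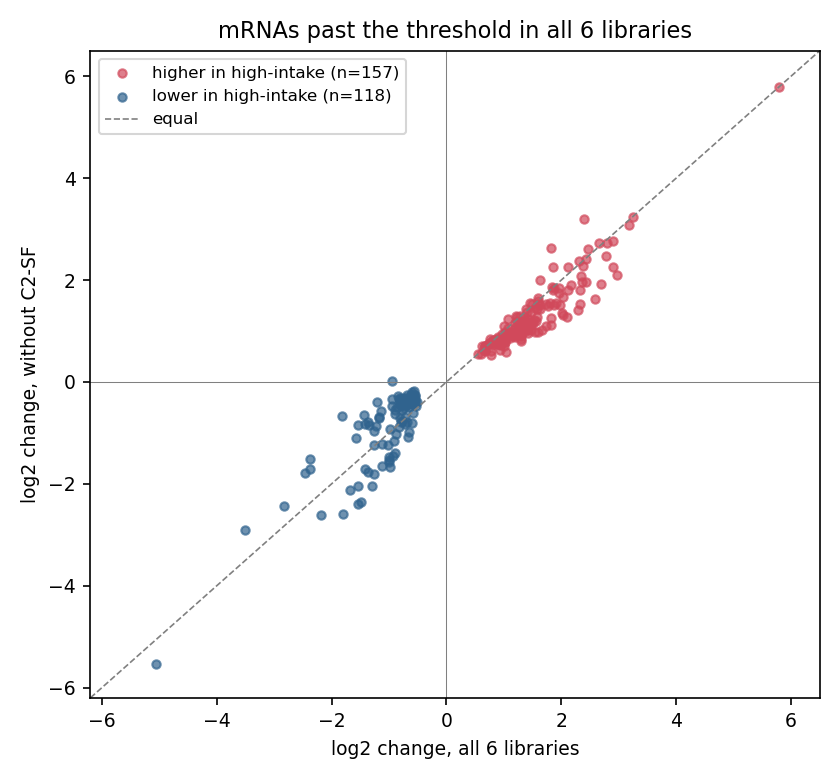
Change of each mRNA that passed the threshold with all 6 libraries, in log2(FPKM + 1), high-intake less control (x axis), against its change after C2-SF was left out (y axis). The libraries behind the y axis are also part of the x axis, by which the mRNAs were chosen. The 157 higher mRNAs lie along the dashed line of equal change with medians of 1.36 and 1.10, and the 118 lower mRNAs with a value on both axes lie mostly above it, with medians of -0.78 over all 126 and -0.47.

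GABRA4 and STBD1 rose under high intake, and passed with all 6 libraries, after centring, and when each library was left out in turn. Neither passed after quantile normalization (adjusted p of 0.099 and 0.061, limma) or without the variance trend (0.086 and 0.48). With no filter on low values GABRA4 passed (adjusted p = 0.012, limma) and STBD1 did not (0.087). GABRA4 encodes the alpha-4 subunit of the GABA-A receptor, a chloride channel opened by the transmitter GABA, and its gene lies on scaffold NW_013185664.1 of goose assembly AnsCyg (9924598 to 9966508, minus strand). It was at 0.933, 1.52 and 0.873 FPKM in the control libraries and at 10.3, 12.5 and 9.15 FPKM in the high-intake libraries. The high-intake values were close to each other, and the lowest of them was far above the highest control value, which came from C2-SF. The change was 2.47 ± 0.38 (SE) with an adjusted p of 1.2e-07, and without C2-SF it was 2.60 ± 0.20 with an adjusted p of 0.03 (limma). GABRB2, the beta-2 subunit of the same receptor family, moved the other way, from 3.82, 4.09 and 4.12 FPKM in the control libraries to 0.893, 1.66 and 0.836 FPKM in the high-intake libraries. Its groups did not overlap either, and the change was -1.25 ± 0.32 (adjusted p = 0.0079, limma), or -1.24 ± 0.21 without C2-SF.

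STBD1 (starch binding domain 1) encodes a membrane protein that binds glycogen and brings it to the lysosome, and its gene lies on scaffold NW_013185813.1 of goose assembly AnsCyg (348299 to 350841, minus strand). Its level was 5.74, 1.7 and 6.5 FPKM in the control libraries and 25.1, 30.2 and 25.5 FPKM in the high-intake libraries. Here C2-SF was the low control, so the change of 2.44 ± 0.49 (adjusted p = 0.00021, limma) became 1.97 ± 0.17 without it (adjusted p = 0.037). Every high-intake value was above every control value.

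SUN1, an inner nuclear membrane protein that ties the nucleus to the cytoskeleton, had the largest fitted change of the mRNAs named. It was listed at 0 FPKM in all 3 control libraries and at 59.4, 38.6 and 69.8 FPKM in the high-intake libraries, and its gene lies on scaffold NW_013185677.1 of goose assembly AnsCyg (6978224 to 7012531, plus strand). A value of exactly 0 can be an abundance estimate that failed, and SUN1 was also listed at 0 in the abdominal adipose library of goose T1 and the liver library of goose C1, while the other abdominal adipose libraries had 29.0 to 51.5 FPKM and the other livers 11.9 to 20.0 FPKM. The adjusted p was 6.6e-36 with all 6 libraries and 0.0024 without C2-SF (limma), and no fold is given against a group at 0. Among all mRNAs tested, 37 were listed at 0 in at least 1 library and above 5 FPKM in another, and 15 of these 37 passed the threshold.

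**Figure D3:**
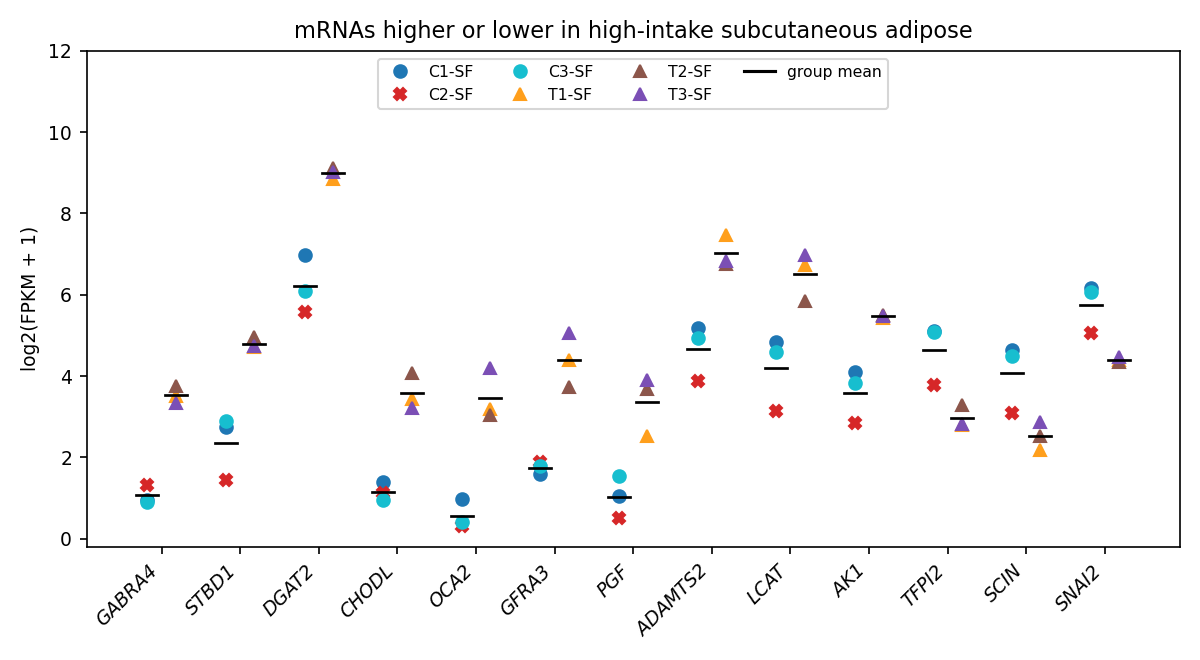
Level of 13 mRNAs in each library on the log2(FPKM + 1) scale, with control libraries at the left and high-intake libraries at the right of each position and black bars at the group means. From GABRA4 to AK1 every high-intake point lies above every control point, and for TFPI2, SCIN and SNAI2 every high-intake point lies below, with C2-SF the nearest control point.

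Apart from SUN1, GABRA4 and STBD1, none of the mRNAs that passed with all 6 libraries did so without C2-SF, so the change without that library stands beside the main one for the mRNAs below that passed, apart from those listed at 0 in a library. When the other 5 libraries were left out in turn, OCA2, CHODL, LAMB3, GFRA3, PGF, SLC25A21, COL4A5 and UQCR11 passed each time, while DGAT2, ADAMTS2, NOV, LCAT, MGP, AK1, MRPS24, RPL38, TFRC, LRRC3B and CPT1B passed without C1-SF and in no other such fit. In these 5 fits, as with all 6 libraries, the spread of the single mRNA between geese did not enter the SE and p. A pass in each of them therefore says nothing about that spread. With a robust trend UQCR11 had an adjusted p of 0.54 (limma). The remaining mRNAs named as rising or falling passed in 1 to 4 of the 6 fits, except TFPI2 and SCIN. After centring, 22 of the 41 named mRNAs that passed lost the threshold. Among the rises they were COL4A5, MGP, NOV, ITGB3, BAMBI, TFRC, SLC25A21, DAO, MRPS24, RPL38, UQCR11, CDK1, CDCA3, SPC25 and RRM2. Among the falls they were ELOVL3, CPT1B, DPP10, METTL11B, LRRC3B, AHSG and ITIH3. Among genes of fat metabolism, DGAT2, which adds the last fatty acid to triacylglycerol, rose. It was at 125, 46.8 and 66.7 FPKM in the control libraries and 459, 554 and 515 FPKM in the high-intake libraries, 6.41 times as high by the group means. The lowest high-intake value was well above the highest control value, which came from C1-SF. The change was 2.78 ± 0.74 (adjusted p = 0.014, limma) and 2.46 ± 0.30 without C2-SF (adjusted p = 0.096). It also passed after centring (adjusted p = 0.015, limma). DGAT2 was the 1 member of 21 tested on the triacylglycerol assembly list that passed (1.18% of all mRNAs rose). The list as a whole had a median change of 0.34 beside 0.21 for all mRNAs. Without C2-SF its median was 0.05 beside -0.01, and 13 of 21 members were higher (48.9% of all mRNAs). At an unadjusted p under 0.05 in that setting, 1 member was lower (5.81% of all mRNAs) and 6 were higher (6.26%). These 6 included AGPAT2, which adds the second fatty acid, and ACSL1, which activates fatty acids with coenzyme A, both named after their values were seen. ACSL1 was at 478, 269.9 and 469 FPKM in the control libraries and 942, 876 and 784 FPKM in the high-intake libraries, with a change of 0.87 ± 0.24 without C2-SF.

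LPL was at 407, 127 and 214 FPKM in the control libraries and 826, 1485 and 651 FPKM in the high-intake libraries, highest in T2-SF. Its groups did not overlap, but the change of 2.05 ± 0.77 had an adjusted p of 0.16 (limma), and without C2-SF it was 1.65 ± 0.44. Stearoyl-CoA desaturase (SCD), which makes oleate, was at 536, 92.4 and 383 FPKM in controls and 1267, 759 and 992 FPKM under high intake, with a change of 1.88 ± 0.77 (adjusted p = 0.23, limma) that shrank to 1.12 ± 0.32 without C2-SF. These 2 abundant mRNAs were both lowest in C2-SF and both above the controls in every high-intake library.

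Other fat cell genes were closer between the groups. Fatty acid synthase (FASN) was at 102, 35.4 and 104 FPKM in controls and 126, 143 and 160.2 FPKM under high intake, with a change of 0.97 ± 0.70 that became 0.46 ± 0.18 without C2-SF. For PLIN1, whose values are given above, the change went from 0.98 ± 0.78 to 0.46 ± 0.29. Adiponectin (ADIPOQ), a hormone of the adipocyte, was at 66.1, 21.8 and 69.3 FPKM in controls and 55.5, 68 and 77.4 FPKM under high intake, so that C1-SF and C3-SF lay within the high-intake range, and its change went from 0.50 ± 0.66 to -0.03 ± 0.19. PPARG, the transcription factor that drives adipocyte formation, was at 102, 45.5 and 154 FPKM in controls and 74.3, 71.6 and 83.7 FPKM under high intake, lower in the high-intake libraries than in C1-SF and C3-SF and higher than in C2-SF. Its change was -0.23 ± 0.69 with all 6 libraries and -0.71 ± 0.22 without C2-SF (unadjusted p = 0.016, limma). None of FASN, PLIN1, ADIPOQ and PPARG passed, with adjusted p values of 0.57 to 0.90.

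A pair of less abundant genes of this group fell. ELOVL3, an enzyme that lengthens fatty acids, was at 2.99, 0.596 and 0.771 FPKM in the control libraries and 0.18, 0.0573 and 0.328 FPKM in the high-intake libraries, with a change of -0.92 ± 0.20 (adjusted p = 0.00091, limma) and -1.17 ± 0.33 without C2-SF. CPT1B, which admits fatty acids to the mitochondrion, was at 0.823, 0.64 and 1.18 FPKM in the control libraries and at 0.203 and 0.195 FPKM in T1-SF and T2-SF and was listed at 0 in T3-SF (adjusted p = 0.0079, limma, and unadjusted p = 0.00091 without C2-SF). Both were below 3 FPKM in every library. Each was the 1 call on its list, of 25 tested genes of fatty acid synthesis and 27 of fatty acid oxidation. Over all mRNAs 0.950% fell. On these lists 17 and 25 members were higher with all 6 libraries (69.0% of all mRNAs) and 13 and 20 without C2-SF (48.9%).

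In cholesterol and lipoprotein handling, LCAT rose. LCAT, an enzyme that esterifies the cholesterol of lipoproteins, was at 27.6, 7.84 and 23 FPKM in the control libraries and 105, 56.3 and 126 FPKM in the high-intake libraries (named after its values were seen). No values overlapped, and the change was 2.33 ± 0.63 (adjusted p = 0.016, limma) and 1.80 ± 0.34 without C2-SF. All 21 tested members of the cholesterol synthesis list were higher with all 6 libraries (69.0% of all mRNAs) and 17 without C2-SF (48.9%). None of them passed.

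COL4A5, of the collagen list, and ADAMTS2, of the list of other matrix genes, rose, as did MGP, NOV and LAMB3, which belong to neither list. COL4A5, a chain of the type IV collagen of basement membranes, was at 6.42, 2.08 and 0.797 FPKM in the control libraries and 53.7, 28.1 and 7.71 FPKM in the high-intake libraries. Both groups spread widely, and the lowest high-intake value (T3-SF) was just above the highest control value (C1-SF). The change was 2.80 ± 0.46 (adjusted p = 8.5e-07, limma), 2.72 ± 0.86 without C2-SF, and it did not pass after centring (adjusted p = 0.11). ADAMTS2, the enzyme that trims the end of new collagen chains before they form fibres, was at 35.4, 13.6 and 29.6 FPKM in controls and 176, 107 and 113 FPKM under high intake. Its change was 2.36 ± 0.66 (adjusted p = 0.022, limma), 1.96 ± 0.25 without C2-SF, with no overlap between the groups.

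Matrix Gla protein (MGP), a secreted inhibitor of calcification, was at 239.6, 34.2 and 270.3 FPKM in the control libraries and 1173, 761 and 551 FPKM in the high-intake libraries. C2-SF was far below the other controls, and the change of 2.58 ± 0.76 (adjusted p = 0.037, limma) fell to 1.63 ± 0.35 without it. NOV, a matrix-associated signalling protein of the CCN family, was at 26.9, 11.9 and 8.13 FPKM in controls and 115, 53.8 and 70.1 FPKM under high intake, a change of 2.37 ± 0.61 (adjusted p = 0.0089, limma) and of 2.27 ± 0.51 without C2-SF. Both groups were separate in each of these genes. The laminin chain LAMB3, also a keratinocyte marker, was at 1.4, 1.16 and 1.47 FPKM in the control libraries and 6.75, 6.03 and 10.1 FPKM in the high-intake libraries, with a change of 1.85 ± 0.37 (adjusted p = 0.00014, limma) and of 1.80 ± 0.24 without C2-SF. The other members of the keratinocyte list gave no call among the 15 tested, and 7 of the 15 were higher (69.0% of all mRNAs). The part of such cells in the LAMB3 result was not tested.

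**Figure D4:**
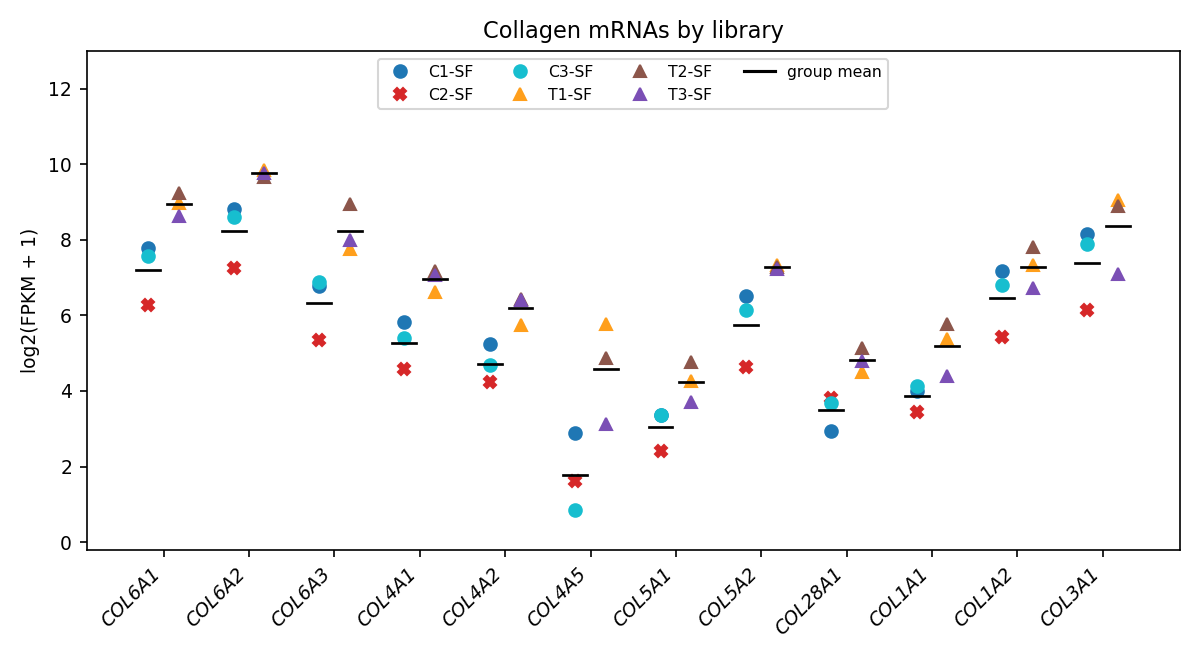
Level of 12 collagen mRNAs in each library on the log2(FPKM + 1) scale, with control libraries at the left and high-intake libraries at the right of each position and black bars at the group means. The high-intake points lie above the control points for COL6A1, COL6A2, COL6A3, COL4A1, COL4A2, COL4A5, COL28A1 and COL1A1 (annotated as collagen alpha-1(I) chain-like), whereas they overlap for COL3A1 and COL1A2; C2-SF is mostly the lowest point.

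Of 33 collagen mRNAs tested, 1 passed (COL4A5), while 13 were higher with no overlap between the groups, against 13.1% of all mRNAs, and 3 were lower with no overlap, against 7.78%. Without C2-SF, 11 of 31 were higher at an unadjusted p under 0.05, against 6.26% of all mRNAs, and 1 was lower. The list's median change was 0.51, 0.30 above that of all mRNAs, and without C2-SF it was 0.33 above. Over the list, T3-SF lay among the controls, at -0.13 against -0.30 in C1-SF, 0.00 in C2-SF and -0.04 in C3-SF, with 0.13 in T1-SF and 0.20 in T2-SF (median over the list of each mRNA's deviation from its mean of the 6 centred libraries, log2). Fibroblast markers summed to 1543, 429 and 1347 FPKM in the control libraries and 2040, 1632 and 803 FPKM in the high-intake libraries, and their part in the collagen values was not tested. The 3 chains of type VI collagen, the beaded filament around adipocytes, were among the 13, and are named here after their values were seen. COL6A1 was at 218, 75.8 and 189.5 FPKM in the control libraries and 497, 603 and 392 FPKM in the high-intake libraries. COL6A2 was at 445, 152 and 389 FPKM in controls and 923, 806 and 874 FPKM under high intake, and COL6A3 at 109, 39.7 and 117 FPKM in controls and 216, 493 and 254 FPKM under high intake. Their changes were 1.54 to 1.90 with all 6 libraries and 1.06 to 1.41 without C2-SF, with adjusted p values of 0.18 to 0.38 in the first case (limma).

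COL4A1 and COL4A2, the main chains of basement membrane collagen, lie next to each other on 1 scaffold on opposite strands. COL4A1 was at 55.9, 23.1 and 41.3 FPKM in controls and 97.5, 144 and 134 FPKM under high intake, and its change without C2-SF was 1.34 ± 0.24 (unadjusted p = 0.00093, limma). COL4A2 was at 37.1, 17.7 and 24.6 FPKM in controls and 52.6, 85.3 and 83.8 FPKM under high intake, with a change of 1.23 ± 0.28 without C2-SF. Tenascin C (TNC), a matrix protein of remodelling tissue, was at 8.4, 5.7 and 17.7 FPKM in controls and 27.7, 34.8 and 31.8 FPKM under high intake, with a change of 1.61 ± 0.54 (adjusted p = 0.091, limma) and of 1.28 ± 0.30 without C2-SF. Of 45 other matrix genes tested, ADAMTS2 and ITGB3 rose and TFPI2, described below, fell, against 1.18% of all mRNAs that rose and 0.950% that fell. The integrin chain ITGB3, a receptor for matrix proteins, passed at a lower level, from 1.18, 0.419 and 1.19 FPKM to 1.44, 4.63 and 2.55 FPKM (change 0.95 ± 0.28, adjusted p = 0.042, limma). Without C2-SF the change of ITGB3 was 0.74 ± 0.34 with an unadjusted p of 0.067 (limma).

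Placental growth factor (PGF), a ligand of the VEGF receptor FLT1, was at 1.08, 0.424 and 1.91 FPKM in the control libraries and 4.76, 11.9 and 13.9 FPKM in the high-intake libraries, with T1-SF the lowest of the latter. The groups were separate, the change was 2.34 ± 0.37 (adjusted p = 3.3e-07, limma), and without C2-SF it was 2.08 ± 0.42. No member of the 33 endothelial and angiogenesis genes tested passed, and their median change was 0.37. GFRA3 (its RefSeq symbol; the deposited annotation reads GDNF family receptor alpha-1-like) belongs to a family of co-receptors for neurotrophic factors. It was at 1.99, 2.67 and 2.43 FPKM in the control libraries and 20.2, 12.4 and 32.2 FPKM in the high-intake libraries, with a change of 2.65 ± 0.45 (adjusted p = 2.5e-06, limma) and of 2.72 ± 0.37 without C2-SF. Chondrolectin (CHODL), a membrane lectin, was at 1.63, 1.18 and 0.943 FPKM in controls and 9.8, 15.9 and 8.34 FPKM under high intake. In GFRA3 and CHODL C2-SF lay near the other controls, and the change of CHODL was 2.42 ± 0.39 (adjusted p = 4e-07, limma) and 2.40 ± 0.30 without that library.

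The following were named after their values were seen. BAMBI, a decoy receptor that damps TGF-beta and BMP signals, was at 5.35, 3.32 and 7.65 FPKM in the control libraries and 32.5, 13.8 and 42.6 FPKM in the high-intake libraries, with a change of 2.17 ± 0.50 (adjusted p = 0.0026, limma) and of 1.91 ± 0.45 without C2-SF. CHRDL2, of a family of secreted BMP binders, was at 6.3, 1.78 and 6.56 FPKM in controls and 18.9, 21.1 and 20.4 FPKM under high intake, with a change of 1.98 ± 0.48 (adjusted p = 0.0043, limma) and 1.51 ± 0.15 without C2-SF. In both, every high-intake goose was above every control goose. IL11RA, the receptor chain for interleukin 11, was at 5.69, 3.23 and 3.32 FPKM in controls and 15.9, 16.5 and 23.5 FPKM under high intake, a change of 1.96 ± 0.47 (adjusted p = 0.0037, limma) and of 1.85 ± 0.26 without C2-SF. SCNN1B, a subunit of the epithelial sodium channel, was at 5.26, 2.61 and 4.03 FPKM in controls and 20.8, 11.8 and 23.1 FPKM under high intake, a change of 1.96 ± 0.47 (adjusted p = 0.0035, limma) and of 1.75 ± 0.30. The control libraries reached at most 7.65 FPKM in these 4 genes, and the high-intake libraries were at 11.8 FPKM or more.

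OCA2, a melanosome membrane protein needed for pigment, was at 0.98, 0.235 and 0.336 FPKM in the control libraries and 8.07, 7.17 and 17.4 FPKM in the high-intake libraries, and its gene lies on scaffold NW_013185695.1 of goose assembly AnsCyg (2123987 to 2329076, minus strand). Its change was 2.90 ± 0.35 (adjusted p = 5.3e-13, limma) and 2.77 ± 0.39 without C2-SF. Of the 11 pigment cell and Schwann cell markers tested OCA2 was the 1 that passed and 5 were higher (1.18% and 69.0% of all mRNAs). The summed level of these markers was 23.2 to 57.0 FPKM in the control libraries and 48.7 to 77.4 FPKM in the high-intake libraries. MITF, the transcription factor of the pigment cell, was at 8.69, 2.73 and 9.55 FPKM in controls and 4.42, 4.47 and 4.51 FPKM under high intake, lower in each high-intake library than in C1-SF and C3-SF and higher than in C2-SF. What part such cells had in the OCA2 result was not tested.

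A pair of genes for the entry of iron, and an enzyme of energy transfer, were named after their values were seen. The transferrin receptor TFRC was at 5.43, 2.42 and 5.52 FPKM in the control libraries and 8.92, 19.2 and 18.3 FPKM in the high-intake libraries, a change of 1.58 ± 0.46 (adjusted p = 0.034, limma) and of 1.28 ± 0.33 without C2-SF. The iron transporter SLC11A2 was at 26.4, 8.91 and 19.1 FPKM in controls and 74.4, 62.6 and 67.5 FPKM under high intake, with a change of 1.97 ± 0.61 (adjusted p = 0.055, limma) and of 1.55 ± 0.19 without C2-SF, and an adjusted p of 0.02 after centring. Adenylate kinase 1 (AK1), which balances the adenine nucleotides, was at 16.2, 6.13 and 13.2 FPKM in controls and 41.8, 44.4 and 43.8 FPKM under high intake, a change of 1.88 ± 0.57 (adjusted p = 0.046, limma) and of 1.50 ± 0.16 without C2-SF. The high-intake values of AK1 lay within 3 FPKM of each other.

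Among genes of cell division, 9 of 61 rose, at low levels, and none fell. On average 59 were higher, and 16 did not overlap between the groups, against 1.18% called higher, 69.0% higher on average and 13.1% non-overlapping among all mRNAs. Their median change was 0.55, 0.35 above that of all mRNAs, and 0.41 above it without C2-SF, where 14 were higher at an unadjusted p under 0.05 (6.26% of all mRNAs). CDK1, the kinase that starts mitosis, was at 2.69, 0.398 and 1.86 FPKM in the control libraries and 8.01, 7.31 and 2.72 FPKM in the high-intake libraries, with a change of 1.42 ± 0.35 (adjusted p = 0.0061, limma) and of 1.01 ± 0.40 without C2-SF. CDCA3, which takes part in mitotic entry, was at 0.861, 1.22 and 1.13 FPKM in controls and 4.45, 7.08 and 2.58 FPKM under high intake, with a change of 1.39 ± 0.32 (adjusted p = 0.0027, limma) and of 1.44 ± 0.34 without C2-SF. The kinetochore protein SPC25 was at 1.73, 0.542 and 1.73 FPKM in controls and 5.1, 4.61 and 2.88 FPKM under high intake, and RRM2, the subunit of ribonucleotide reductase that is made in S phase, at 0.931, 0.0884 and 0.636 FPKM in controls and 2.19, 3.02 and 1.23 FPKM under high intake. Their changes were 1.18 ± 0.33 and 1.02 ± 0.25 with all 6 libraries and 0.90 ± 0.24 and 0.78 ± 0.26 without C2-SF. In each of these 4, T3-SF was the lowest high-intake library, and CDK1 in T3-SF was nearly level with C1-SF. Over the whole list, T3-SF lay among the controls, at -0.24 against -0.27 in C1-SF, 0.04 in C2-SF and -0.21 in C3-SF, with 0.30 in T1-SF and 0.37 in T2-SF (on the same scale as for collagens).

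Lysosome genes were mostly higher, without passing the test. All 44 tested members of the list were higher on average, 22 had no overlap between the groups (13.1% of all mRNAs), and none passed the adjusted threshold. Without C2-SF, 38 of 44 were higher (48.9% of all mRNAs) and 15 had an unadjusted p under 0.05 (6.26% of all mRNAs). The median change was 0.80 with all 6 libraries, 0.59 above that of all mRNAs, and 0.37 above it without C2-SF. The protease cathepsin B (CTSB), named after its values were seen, was at 145, 39 and 109 FPKM in the control libraries and 216, 250.5 and 228 FPKM in the high-intake libraries, and cathepsin Z (CTSZ) at 76.2, 23.3 and 71.3 FPKM in controls and 129, 118 and 119.9 FPKM under high intake. Their changes without C2-SF were 0.88 ± 0.21 and 0.72 ± 0.16. Markers of macrophages, cells rich in lysosomes, summed to 867, 141 and 469 FPKM in the control libraries and to 966, 907 and 379 FPKM in the high-intake libraries. All 11 tested markers were higher on average (69.0% of all mRNAs) and none passed. Their median change was 0.76, or 0.25 without C2-SF. The part of macrophages in the lysosome result was not tested.

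Most mRNAs of mitochondrial proteins encoded in the nucleus were higher on average under high intake. Most mRNAs encoded in the mitochondrion were lower on average. All 27 tested nuclear genes of respiratory complex I, all 18 of complexes II to IV, all 11 of ATP synthase and all 61 of the mitochondrial ribosome were higher on average, with medians 0.47 to 0.76 above that of all mRNAs. Without C2-SF these medians were 0.21 to 0.38 above, and 21, 17, 11 and 51 members were still higher. Over all mRNAs 69.0% were higher with all 6 libraries and 48.9% without C2-SF. By the measure of list level used for collagens, C2-SF was the lowest library on these 4 lists, at -1.08 to -0.60, and T2-SF, at -0.04 to 0.13, lay near C1-SF and C3-SF, at 0.00 to 0.10. Among them MRPS24, a protein of the mitochondrial ribosome, passed, at 9.78, 1.86 and 9.37 FPKM in the control libraries and 21.2, 20.8 and 19.7 FPKM in the high-intake libraries (change 1.66 ± 0.50, adjusted p = 0.042, limma, and 1.03 ± 0.15 without C2-SF). The complex III subunit UQCR11 also passed, but it was listed at 0 in the 3 control libraries and T1-SF and had 4.12 and 1.83 FPKM in T2-SF and T3-SF. Its SE of 0.20 with all 6 libraries became 0.61 without C2-SF, where its unadjusted p was 0.075 (limma). The 13 mRNAs of the mitochondrial genome had a median change of -0.99, and of -0.44 without C2-SF, and 10 of 13 were lower with 4 non-overlapping (7.78% of all mRNAs). The level of this list was -0.28 in C1-SF, 1.77 in C2-SF and 0.40 in C3-SF and -0.52 to -0.13 in the high-intake libraries, so that the groups overlapped. The difference between the nuclear and mitochondrial lists was not tested. ND2, a subunit of complex I, was at 28.2, 55.9 and 46.3 FPKM in the control libraries and 15.2, 12.7 and 9.9 FPKM in the high-intake libraries, and ND5 of the same complex at 29, 58.3 and 43.9 FPKM in controls and 19.5, 19.2 and 14.2 FPKM under high intake (both named after their values were seen). C2-SF was the highest in each, none of the 13 passed, and the change of ND2 was -1.67 ± 0.57 (adjusted p = 0.099, limma), or -1.47 ± 0.27 without C2-SF.

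Malate dehydrogenase 2 (MDH2), an enzyme of the citric acid cycle, was at 37.8, 12 and 37.3 FPKM in the control libraries and 68.1, 54.3 and 58.6 FPKM in the high-intake libraries, with a change of 1.19 ± 0.63 (adjusted p = 0.41, limma) that became 0.66 ± 0.17 without C2-SF. The selenoenzyme GPX1 (annotated as glutathione peroxidase 1-like, and named after its values were seen), which removes peroxides, was at 364, 77.2 and 296 FPKM in controls and 831, 733 and 932 FPKM under high intake, with a change of 2.02 ± 0.77 (adjusted p = 0.17, limma) and 1.33 ± 0.25 without C2-SF. Of 32 antioxidant genes tested 29 were higher and 13 of them without overlap, against 69.0% and 13.1% of all mRNAs, and none passed. Without C2-SF, 8 were higher at an unadjusted p under 0.05 (6.26% of all mRNAs). All 34 tested proteasome genes and 45 of 46 endoplasmic reticulum genes were also higher on average, with medians 0.54 and 0.46 above that of all mRNAs and 0.28 and 0.23 above it without C2-SF.

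The mRNAs of cytosolic ribosomal proteins differed between the 2 settings. With all 6 libraries 59 of 61 were higher (69.0% of all mRNAs) and the list median was 0.44 above that of all mRNAs. Without C2-SF, 30 of 61 were higher (48.9% of all mRNAs) and the median was 0.02 below it. The 1 member that passed, RPL38, was at 117, 9.7 and 37.2 FPKM in the control libraries and 110.3, 191 and 265 FPKM in the high-intake libraries, so that C1-SF was above T1-SF. Its change was 2.29 ± 0.68 (adjusted p = 0.042, limma) and 1.41 ± 0.54 without C2-SF.

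**Figure D5:**
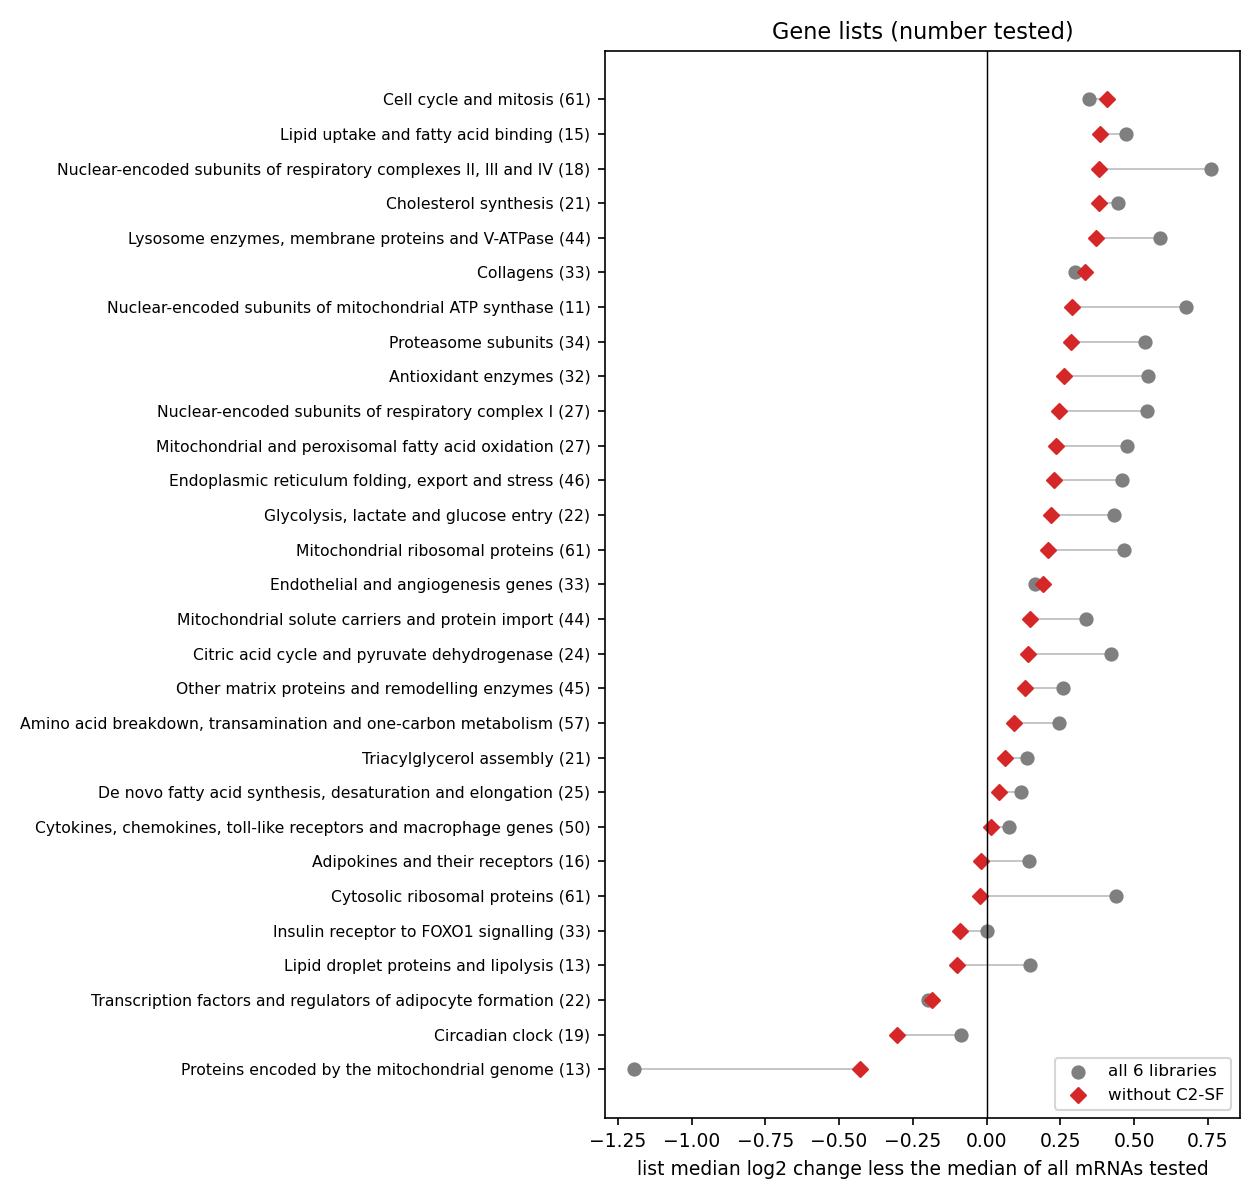
Median change of each of 29 gene lists less the median change of all mRNAs tested, in log2(FPKM + 1), with all 6 libraries (grey circles) and without C2-SF (red diamonds); numbers in brackets are the mRNAs tested. Cell cycle, lipid uptake, cholesterol synthesis and collagen lists stay close between both settings. The cytosolic ribosome list moves from 0.44 to -0.02, and the list of mRNAs encoded in the mitochondrion moves from -1.20 to -0.43.

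Among mRNAs that fell, 7 met the rule for naming, which asked for a mean above 1 FPKM, no overlap between the groups and a gene symbol, against 88 that rose. TFPI2, a secreted inhibitor of proteases of clotting and matrix breakdown, was at 33.2, 12.7 and 32.7 FPKM in the control libraries and 5.9, 8.72 and 6.11 FPKM in the high-intake libraries. The change was -1.68 ± 0.51 (adjusted p = 0.048, limma), and without C2-SF it was larger, -2.12 ± 0.20 (adjusted p = 0.057). Scinderin (SCIN), which cuts actin filaments, was at 24.1, 7.47 and 21.4 FPKM in controls and 3.53, 4.8 and 6.29 FPKM under high intake, with a change of -1.54 ± 0.47 (adjusted p = 0.049, limma) and -2.04 ± 0.23 without C2-SF. In both genes C2-SF was the control nearest to the high-intake geese, and both lost the threshold whenever any library was left out. After centring they passed (adjusted p of 0.0075 and 0.014, limma).

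AMDHD1, an enzyme of histidine breakdown, was at 8.46, 2.52 and 5.77 FPKM in the control libraries and 2.07, 0.894 and 1.22 FPKM in the high-intake libraries, a change of -1.37 ± 0.34 (adjusted p = 0.0065, limma) and of -1.77 ± 0.27 without C2-SF. DPP10, a potassium channel partner without peptidase activity, was at 1.12, 1.46 and 3.21 FPKM in controls and 0.587, 0.278 and 0.0461 FPKM under high intake (adjusted p = 0.00019, limma). The methyltransferase METTL11B was at 1.72, 1.86 and 1.4 FPKM in controls and 0.584, 0.0736 and 0.429 FPKM under high intake (adjusted p = 0.0022), and LRRC3B, a leucine-rich repeat membrane protein, at 1.8, 2.1 and 1.2 FPKM in controls and 0.947, 0.156 and 0.586 FPKM under high intake (adjusted p = 0.037, limma). The last 3 were below 4 FPKM in every library, and their changes without C2-SF were -1.22 ± 0.31, -0.93 ± 0.19 and -0.70 ± 0.24.

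SNAI2, a transcription factor of mesenchymal and precursor cells, was at 70.2, 32.1 and 66.3 FPKM in the control libraries and 20.1, 19.5 and 21.1 FPKM in the high-intake libraries. Every control value was above every high-intake value, and the latter differed by less than 2 FPKM. With all 6 libraries the change of -1.35 ± 0.61 had an adjusted p of 0.3, whereas after centring the adjusted p was 0.015, and without C2-SF the change was -1.71 ± 0.15 with an adjusted p of 0.037 (limma). SNAI2 was named after its values were seen. The list of regulators of adipocyte formation, to which PPARG belongs, gave no call. With all 6 libraries 11 of 22 were lower (31.0% of all mRNAs). Without C2-SF 17 of 22 were lower (51.1%), and 4 of these had an unadjusted p under 0.05 (5.81% of all mRNAs).

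A pair of plasma protein genes of the liver type fell as well, both named after their values were seen. AHSG (fetuin-A) was at 36.2, 2.22 and 8.65 FPKM in the control libraries and 2.47, 0.377 and 8.68 FPKM in the high-intake libraries, and ITIH3, of the inter-alpha-trypsin inhibitor family, at 7.02, 0.634 and 2 FPKM in controls and 0.864, 0.243 and 1.14 FPKM under high intake, with adjusted p values of 0.014 and 0.016 (limma) and changes of -2.40 ± 0.87 and -1.52 ± 0.43 without C2-SF. When 1 library was left out, both passed without T3-SF and in no other fit, and without C1-SF, the highest control, the AHSG log2 change was -0.64 and the ITIH3 log2 change -0.38, against -1.55 and -0.996 with all 6 libraries. After centring neither passed (adjusted p of 0.30 and 0.17, limma). They were the 2 calls among 16 hepatocyte markers tested, against 0.950% of all mRNAs that fell. Of the 16, 14 were lower with all 6 libraries (31.0% of all mRNAs) and 16 without C2-SF (51.1%). Without C2-SF, 8 of the 16 were lower at an unadjusted p under 0.05 (5.81% of all mRNAs). The hepatocyte markers summed to 6046, 825 and 3229 FPKM in the control libraries and 1120, 974 and 2525 FPKM in the high-intake libraries. They were led by APOA1 at 4361, 699.9 and 2582 FPKM in controls and 646, 658 and 1986 FPKM under high intake. Values in C2-SF lay below all high-intake sums and T3-SF was near C3-SF, so that the groups overlapped, and the part of RNA from another tissue was not tested.

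Genes of insulin signalling and of the circadian clock gave no call in 33 and 19 tested, and the ones named here were chosen after their values were seen. With all 6 libraries, 24 of 33 insulin genes and 14 of 19 clock genes were higher on average, against 69.0% of all mRNAs, and without C2-SF 13 of 32 and 3 of 19 were, against 48.9%. Without C2-SF, 5 of 32 insulin genes and 5 of 19 clock genes were lower at an unadjusted p under 0.05 (5.81% of all mRNAs), and 2 and 0 were higher (6.26%). Those named are from the lower ones. IRS2, a substrate of the insulin receptor, was at 15.2, 6.88 and 11.1 FPKM in controls and 6.92, 6.47 and 6.73 FPKM under high intake, and the kinase AKT1 at 46.1, 16.8 and 48.3 FPKM in controls and 28.8, 26.5 and 30.1 FPKM under high intake. C1-SF and C3-SF exceeded every high-intake library in both genes and C2-SF did not. The changes without C2-SF were -0.86 ± 0.19 and -0.71 ± 0.15, and -0.80 ± 0.16 for the phosphoinositide 3-kinase subunit PIK3R1. Of the clock genes, PER2 was at 15.3, 7.79 and 15.3 FPKM in controls and 8.21, 10.4 and 7.29 FPKM under high intake and NPAS2 at 4.9, 2.73 and 6.6 FPKM in controls and 2.92, 3.47 and 2.4 FPKM under high intake, with changes of -0.77 ± 0.19 and -0.78 ± 0.21 without C2-SF. With all 6 libraries the changes of these 5 genes were -0.58 to -0.20.

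The abdominal adipose libraries of the same geese were used to ask where the subcutaneous response differed. In abdominal adipose 11 of 12526 mRNAs passed (0.0878%), and 7 passed in both depots: OCA2, GABRA4, CHODL, SLC25A21, STBD1, DAO and TFRC. They were 2.47% of the subcutaneous and 63.6% of the abdominal calls, and since the geese are the same, the comparisons are not independent. The abdominal fit drew in part on each mRNA's own spread, unlike the subcutaneous one, so the 2 counts of calls rest on unlike errors. Of the higher subcutaneous calls, 147 of 152 tested in abdominal adipose were higher there, with a median change of 1.19 (0.12 over all mRNAs). Of the lower calls, 62 of 86 were lower there, with a median of -0.12. Rises were general in abdominal adipose, where 2105 of the 2545 mRNAs with an unadjusted p under 0.05 (limma) were higher. The part of this general lean in the shared direction of the rises was not tested. The changes in abdominal adipose were 2.89 for GABRA4, 2.19 for STBD1, 2.93 for OCA2 and 2.41 for CHODL. SLC25A21, a mitochondrial carrier of 2-oxodicarboxylates, was at 0.714, 0.198 and 0.834 FPKM in the subcutaneous control libraries and 3.18, 3.5 and 2.59 FPKM in the high-intake libraries (change 1.39 ± 0.28, 1.20 ± 0.18 without C2-SF, and 1.56 in abdominal adipose). DAO, an oxidase of D-amino acids, was at 0.572, 0.372 and 0.609 FPKM in controls and 0.949, 1.92 and 2.81 FPKM under high intake (change 0.88 ± 0.24, 0.81 ± 0.28 without C2-SF, and 1.22 in abdominal adipose). DGAT2 had a change of 2.76 in abdominal adipose with an adjusted p of 0.089 (limma).

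The difference between the depots in their response was tested with the goose as a block. It passed for 5 of 12926 mRNAs (0.0387%), and without goose C2 for 0 of 12544 (limma), where 910 had an unadjusted p under 0.05. SUN1 was among the 5, with its values of 0 described above. Compared with liver in the same way, 219 of 12755 mRNAs (1.72%) responded differently, among them 42 of the 157 higher and 23 of the 126 lower subcutaneous calls. These calls were chosen by their change in the same subcutaneous libraries, so a share of them above 1.72% is built in. Without goose C2, 8 of 12415 mRNAs responded differently from liver, and after centring 69 of 12755. Some of the 219 had a liver mean not above 0.1 FPKM, where the difference stays close to the subcutaneous change itself. LPL was 1 of the named genes with a different response, with a change of 2.05 ± 0.77 in subcutaneous adipose and -0.99 in liver (adjusted p of the difference 0.019, limma).

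None of the 1373 lncRNAs tested passed (0%), with a pseudocount of 0.1 in place of 1, while 221 had an unadjusted p under 0.05, 33 of them higher. After centring, which also gave no call, 75 of 205 with an unadjusted p under 0.05 were higher. On average 72.1% were lower in high-intake geese and 27.9% were higher, and 306 (22.3%) were lower without overlap beside 47 (3.42%) that were higher without overlap. C2-SF was the highest library for 54.0% of all lncRNAs tested. The filter took the mean over all 6 libraries, and 1042 lncRNAs passed it when C2-SF was left out. Those that entered only through their level in C2-SF are lower under high intake largely by that selection. The shares that were lower are therefore partly built in. Without C2-SF the median change over lncRNAs was -0.09, against -0.44 with all 6 libraries, and 96 of 1042 had an unadjusted p under 0.05, 34 of them higher. An FPKM of 0.1 or more was reached by 95.8% of the 1701 lncRNAs in C2-SF, 78.95% in C3-SF, 59.1% in C1-SF and 50.8% to 53.3% in the high-intake libraries.

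The 3 lncRNAs with the smallest p in each direction were described by their position on goose assembly AnsCyg, for which the file gives no strand. XLOC_099127 (NW_013185675.1, 8553548 to 8555867), which overlaps the gene of the exoribonuclease ERI3, was at 0.0956, 0.0492 and 0.123 FPKM in the control libraries and 0.736, 0.560 and 2.40 FPKM in the high-intake libraries (change 2.58 ± 0.54, adjusted p = 0.138, limma). XLOC_233930 lies 4276 bp from RBBP8NL and was at 0.283, 0.216 and 0.150 FPKM and 0.813, 1.44 and 1.13 FPKM. XLOC_052706 lies 3281 bp from the phosphatase gene PTP4A1 and was at 0.850, 1.41 and 1.36 FPKM and 5.63, 3.34 and 2.66 FPKM. In these 3 every high-intake library was above every control library, C2-SF included.

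Of the 3 that were lower, XLOC_358833 (NW_013186236.1, 13894 to 21096), 3507 bp from a gene annotated as olfactory receptor 10H1-like, was the most abundant. It was at 25.1, 38.2 and 61.8 FPKM in the control libraries and 9.41, 4.39 and 5.61 FPKM in the high-intake libraries (change -2.65 ± 0.53, adjusted p = 0.138, limma), and the change without C2-SF was -2.66. XLOC_352881, which overlaps the prohormone convertase gene PCSK1, was at 0.612, 6.44 and 2.34 FPKM and 0.122, 0.115 and 0.126 FPKM, highest in C2-SF. XLOC_051317, which overlaps ARHGEF10, was at 0.679, 1.56 and 0.297 FPKM in the control libraries and was listed at 0 in the 3 high-intake libraries. Without C2-SF, no lncRNA of the 6 had an adjusted p under 0.40.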

How the data were processed

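Total RNA of each tissue sample was depleted of ribosomal RNA and sequenced in pairs (the labels name Trizol for extraction, the methods an RNeasy kit). The authors mapped the reads to goose assembly AnsCyg with Bowtie2 2.11 and TopHat2 2.12 and estimated FPKM with Cufflinks 2.1.1, as named in the submitters' processing notes. The deposited values were read as log2(FPKM + 1), a base that was settled from the share of fragments each reading implies, and converted back to FPKM. The table has no value column outside the 18 libraries. Positions came from the deposited annotation, and 762 of 2859 mRNAs with a locus name took their symbol from RefSeq by gene ID.

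Genes with a mean above 0.1 FPKM were compared on the log2 scale, after adding 1 to the FPKM of mRNAs and 0.1 to that of lncRNAs, with limma 3.58.1 in R 4.3.3 (moderated test, variance trend), without a replicate block since numbers of control and high-intake geese do not pair them. Differences between tissues used a model with the goose as a block. Named genes were the 12 largest rises and all 7 falls among mRNAs that passed, without overlap, with a symbol and a mean above 1 FPKM, together with fixed fat cell genes. Of each list, members that passed were also named. Where many passed, as in the cell cycle list, only those with the largest changes were named. The members and lists were chosen with earlier results of these data known. Alternatives were another pseudocount, filter, scaling or variance model, and leaving out each library. In simulated data of 13264 mRNAs with 100 changed by 1 and 100 by 2 (log2), 0 and 7 were recovered, with 1 unchanged mRNA called. The changed mRNAs all had a mean log2(FPKM + 1) above 2. The simulated noise was independent between mRNAs and lacked the shift of C2-SF with abundance. It was drawn from each mRNA's own spread, which holds the deviation of C2-SF, whereas the main fit took its errors from the trend alone. The simulation therefore cannot show how many of the 283 calls are false, or how many true changes the main comparison missed. FABP4 of the fixed genes, and other list symbols that matched no entry, were not analysed here. No sequences were used.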

Additional observations from a re-analysis of the deposited data

Results flagged for a closer look

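Responses to feeding that differed between tissues of the same geese are listed here, each as the difference of the log2 changes with its adjusted p (limma, with the goose as a block), and none of the causes was tested. Between subcutaneous and abdominal adipose, 5 mRNAs differed. TRPA1, an ion channel of sensory nerves, differed by -2.37 (adjusted p = 0.00038), with a change of 0.25 in subcutaneous and 2.61 in abdominal adipose. SUN1 differed by 7.86 (adjusted p = 0.00092), which rests on libraries where it was listed at 0. LOC106033238, annotated as a fatty acyl-CoA hydrolase precursor, differed by -2.20 (adjusted p = 0.0089), TPD52L1 by -1.52 and GPR61 by -1.57 (adjusted p = 0.038 for both). In subcutaneous adipose GPR61 was at 4.04 FPKM in C2-SF and listed at 0 in the other 5 libraries. Without goose C2 none of the 5 passed.

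Between subcutaneous adipose and liver, 20 of the mRNAs named above responded differently. The receptor and membrane protein mRNAs were GABRA4 with a difference of 2.48 (adjusted p = 1.1e-05), GABRB2 with -1.17 (0.028), GFRA3 with 3.17 (0.00034), CHODL with 2.43 (3.7e-05), OCA2 with 2.91 (2.4e-06), IL11RA with 1.89 (0.031), SCNN1B with 1.90 (0.0048), DPP10 with -1.02 (0.033) and BAMBI with 2.62 (0.009). Of the secreted and matrix proteins, COL4A5 differed by 3.20 (adjusted p = 0.00061), LAMB3 by 1.70 (0.0014), TNC by 2.48 (0.019), ADAMTS2 by 1.88 (0.049), NOV by 2.41 (0.0063), CHRDL2 by 1.98 (0.0055) and PGF by 2.12 (0.001). LPL differed by 3.04 (adjusted p = 0.019), SUN1 by 4.97 (0.0002), METTL11B by -0.94 (0.027) and the clock gene NPAS2 by -1.51 (0.037), with a change of -0.50 in subcutaneous adipose and 1.01 in liver. OCA2, GABRA4, CHODL, LAMB3, SCNN1B, CHRDL2, METTL11B and DPP10 had no liver value of their own because their liver mean was not above 0.1 FPKM. For these the difference stayed close to the subcutaneous change itself (2.91 against 2.90 for OCA2) and sets no liver response beside it. Without goose C2, 8 mRNAs in all responded differently from liver.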

How the results depend on the processing

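With all 6 libraries 283 mRNAs passed, 157 higher and 126 lower. The count was 38 after centring (30 higher, 8 lower), 6 with no filter on low values, 154 with a mean above 1 FPKM, 5 after quantile normalization, 1 without the variance trend and 6 after centring without C2-SF. With array weights, whose estimation did not converge, it was 5141. Leaving out 1 library gave 4 (C2-SF) to 715 (C1-SF), with 150 without C3-SF and 122, 115 and 140 without T1-SF, T2-SF and T3-SF. It was 360 with a pseudocount of 0.1 and 235 with a robust trend. Of 41 named mRNAs that passed, 19 still did after centring, 39 with a pseudocount of 0.1, 36 without C1-SF, 3 without C2-SF, 15 without C3-SF, and 18, 16 and 19 without T1-SF, T2-SF and T3-SF. With a robust trend 36 did, but only 3 after quantile normalization, 5 with no filter and 5 after centring without C2-SF. Without the variance trend 1 did, SUN1, whose control values are all listed at 0. None of the 41 changed sign in any of these settings. The ADIPOQ log2 change turned to -0.11 after quantile normalization, -0.0383 after centring without C2-SF and -0.087 with array weights, and ranged from -0.028 (without C2-SF) to 0.78 (without C3-SF) when 1 library was left out. In such fits PPARG ranged from -0.71 to 0.16, PIK3R1 from -0.80 to 0.10 and AKT1 from -0.71 to 0.024, lowest without C2-SF and highest without C3-SF. None of these 3 or ADIPOQ passed in the main comparison, and the cause was not tested.

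With the replicate number as a block, 230 mRNAs and 4 lncRNAs passed. Samples of the same number deviated together with r = 0.19 (goose number 1), 0.24 (2) and 0.06 (3), and C3-SF with T1-SF at 0.08. Deviations from a mean of 3 libraries depend on each other, so these values cannot settle a pairing. The numbers were not taken as pairs because control and high-intake geese are different animals. Leaving out 1 library gave 0 to 12 lncRNAs, the 12 without C1-SF, and the other lncRNA settings gave 0. The difference from abdominal adipose, 5 mRNAs, was 8 with a pseudocount of 0.1, 2 after centring, 0 without goose C2 and 1 with no replicate block. The difference from liver, 219 mRNAs, was 69 after centring, 8 without goose C2 and 27 with no replicate block. Of the 29 list medians, 5 moved by more than the spread between libraries without C2-SF and 3 with a pseudocount of 0.1, whereas centring shifts all mRNAs alike and could not move them. That spread includes C2-SF itself, which widens it, so the 5 do not count the lists that depend on C2-SF. The cytosolic ribosome list moved from 0.44 to -0.02 (spread 0.53). The list encoded in the mitochondrion moved from -1.20 to -0.43 (spread 0.80). Neither is among the 5, though no list moved further. Depth is unknown, so counting error could not be set beside any of these values.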

Other observations

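Lists not described above gave no call apart from the fall of AMDHD1 in amino acid breakdown, and are given by their median change less that of all mRNAs tested, with all 6 libraries and then without C2-SF. Over all mRNAs 69.0% were higher with all 6 libraries and 48.9% without C2-SF. Lipid uptake and fatty acid binding, to which 15 tested mRNAs belong, lay 0.47 and 0.38 above, with 13 of 15 and 12 of 15 higher. Glycolysis and glucose entry lay 0.43 and 0.22 above, with 19 of 22 higher in both settings, and the citric acid cycle 0.42 and 0.14 above. Mitochondrial carriers and protein import lay 0.34 and 0.15 above, and amino acid breakdown 0.25 and 0.09 above, with 44 and 33 of 57 members higher. Lipid droplet and lipolysis genes lay 0.15 above with all 6 libraries and -0.10 from the median without C2-SF, where 6 of 13 were higher. Adipokines and their receptors differed by 0.14 and -0.02, and cytokine, toll-like receptor and macrophage genes by 0.08 and 0.01. Summed lymphocyte markers were lowest in T3-SF, at 12.5 FPKM against 22.95 to 47.2 FPKM in the other 5 libraries, and fibroblast markers were at 803 FPKM in T3-SF against 1347 to 2040 FPKM in the others except C2-SF (429 FPKM).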
